A study of Mus musculus with 4 samples.

Results

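The genes described here are 10 that encode subunits of voltage-gated calcium channels, chosen by name out of the 55421 genes listed for each library. Their working name was pore subunits, but only 8 of them (Cacna1a, Cacna1b, Cacna1c, Cacna1d, Cacna1e, Cacna1g, Cacna1h and Cacna1i) encode alpha1 subunits, which form the pore. The other two, Cacna2d1 and Cacna2d3, encode auxiliary alpha2delta subunits and are described apart. Each of the 10 names matched 1 gene, and 10 of 10 passed the filter on low counts.

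PFC tissue of newborn wild-type C57BL/6 mice (P0) was dissociated and cultured for 10 days, and total RNA from these cultures was taken for sequencing. The treated cultures received FGF2, a fibroblast growth factor, at 5 ng/mL, and the control cultures did not (0 ng/mL). There were 2 libraries from each group, and n = 2 counts libraries throughout. The labels do not say whether these came from separate cultures or animals, and the study's methods describe such pairs, outside certain human samples, as technical replicates. On that reading every SD, SE and p-value here measures the spread between libraries of 1 sample per group, not between cultures or animals. The comparison asks how the transcripts of these channels differed between cultures with and without FGF2.

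Voltage-gated calcium channels open when the membrane depolarizes and let calcium ions into the cell. In neurons they couple electrical activity to transmitter release, dendritic excitability and gene expression. The alpha1 subunit sets the channel type. Cav1 channels (L-type) open at high voltage and signal to the nucleus, Cav2 channels (P/Q-, N- and R-type) open at high voltage and serve transmitter release, and Cav3 channels (T-type) open near the resting potential and support burst firing. Alpha2delta and beta subunits help high-voltage channels reach the membrane.

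Counts on genes ranged from 9166432 to 10799886 per library. The cultures were mixed, and markers of several cell types moved with the treatment. Of 12 pan-neuronal markers 10 were lower with FGF2 and 1 was higher, and their summed level was 3857 to 3977 CPM with FGF2 against 5559 to 5578 CPM without FGF2. CPM is the count scaled to the library's total on tested genes, after TMM normalization. Of 12 IN markers 11 were lower (828 to 831 against 1411 to 1459 CPM summed), and of 10 EN markers 5 were lower and none was higher (585 to 604 against 801 to 823 CPM). Of 9 astrocyte markers 8 were higher (12578 to 12708 against 7678 to 7726 CPM), and 9 of 10 oligodendrocyte lineage markers were higher (1864 to 1873 against 560 to 569 CPM). The other lists were low, with 11.9 to 14.8 against 5.81 to 6.10 CPM summed over 7 microglia markers (2 higher), 65.5 to 69.4 against 53.9 to 55.7 CPM over 9 fibroblast and mural markers (2 higher, 2 lower) and 7.73 to 9.92 against 4.95 to 8.50 CPM over 6 endothelial markers (1 higher, 1 lower). Cldn5, a defining endothelial marker, was at 0 in every library. In bulk cultures fewer cells of a type and less RNA per cell cannot be told apart, and the part of these shifts in the channel results was not tested.

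Promoter sequences are shown for 4 of the genes (values of their falls follow the sequences). All 10 genes were lower with FGF2, so a shared fall does not set these 4 apart. RefSeq (GRCm38.p6, the assembly behind mm10) lists 10 start sites for 7 of the 10 genes. The 250 bases before the start are free of annotated exons for 6 of these sites. The stretches lie at chr2:24763153-24763402 (minus strand) for Cacna1b, chr14:30353487-30353736 (minus strand) for a start inside the annotated span of Cacna1d, chr14:29721865-29722114 (minus strand) for Cacna2d3 and chr15:80286988-80287237 (plus strand) for Cacna1i. They are written 5′ to 3′ toward the start, and capitals mark every GC box, the 6 letters GGGCGG on either strand (CCGCCC), where overlapping boxes run together.
Cacna1b: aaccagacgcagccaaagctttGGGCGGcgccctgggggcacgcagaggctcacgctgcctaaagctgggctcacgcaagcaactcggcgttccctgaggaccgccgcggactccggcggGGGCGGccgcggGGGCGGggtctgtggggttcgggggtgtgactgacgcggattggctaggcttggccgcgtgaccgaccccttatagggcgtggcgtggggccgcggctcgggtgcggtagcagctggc
Cacna1d: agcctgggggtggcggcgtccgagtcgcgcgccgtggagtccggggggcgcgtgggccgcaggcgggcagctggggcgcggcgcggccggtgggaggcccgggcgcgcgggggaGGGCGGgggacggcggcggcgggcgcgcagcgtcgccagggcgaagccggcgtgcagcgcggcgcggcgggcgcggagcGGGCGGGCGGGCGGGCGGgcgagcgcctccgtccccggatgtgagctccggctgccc
Cacna2d3: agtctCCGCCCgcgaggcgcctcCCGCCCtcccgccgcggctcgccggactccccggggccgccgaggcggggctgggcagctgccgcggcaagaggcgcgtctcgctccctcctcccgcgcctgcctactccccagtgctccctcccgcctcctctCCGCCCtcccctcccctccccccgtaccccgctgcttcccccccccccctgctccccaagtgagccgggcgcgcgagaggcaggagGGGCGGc
Cacna1i: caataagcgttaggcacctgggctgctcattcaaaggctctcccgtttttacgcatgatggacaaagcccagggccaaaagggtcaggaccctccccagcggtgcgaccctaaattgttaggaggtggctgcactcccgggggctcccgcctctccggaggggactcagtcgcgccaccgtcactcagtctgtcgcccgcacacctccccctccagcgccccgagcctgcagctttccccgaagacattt
Cacna1b has 3 GC boxes here, Cacna1d 5, Cacna2d3 4 and Cacna1i 0. A GC box was present in 5 of the 10 member entries and in 32.7% of all 32851 promoter entries of the same length. The remaining 2 sites clear of exons, of Cacna1c and Cacna2d1, have 0 and 6 GC boxes. The 4 printed stretches also hold 29, 50, 30 and 16 CpG dinucleotides, in the same gene order, where the median over all entries is 6. The member entries not printed hold 5, 48 and 2 (Cacna1c), 2 (Cacna1d), 6 (Cacna1e) and 36 (Cacna2d1), so the members are not uniformly rich in CpG. None of the 10 member entries has the CRE letters TGACGTCA (1.55% of all entries) or the AP-1 letters TGANTCA with C or G in the middle (4.46% of all entries). These matches describe the letters only.

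Transcripts of 10 of the 10 channel genes were lower in the cultures with FGF2. Each was called at 0.05 by the quasi-likelihood test of edgeR, after Benjamini-Hochberg adjustment over all tested genes, and for each both libraries with FGF2 lay below both libraries without. Among all 17144 tested genes 40.5% were called, 19.9% as lower and 20.7% as higher with FGF2. Both FGF2 libraries lay below both others for 33.4% of the tested genes and above them for 33.6%. The median log2 fold change was -0.67 over the 10 genes and -0.00082 over all tested genes. The falls ran from 0.14 for Cacna1a to 1.33 for Cacna1g on the log2 scale. For 9 of the 10 genes the direction and the call held under every alternative processing, and the exception was Cacna1a.

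**Figure D1:**
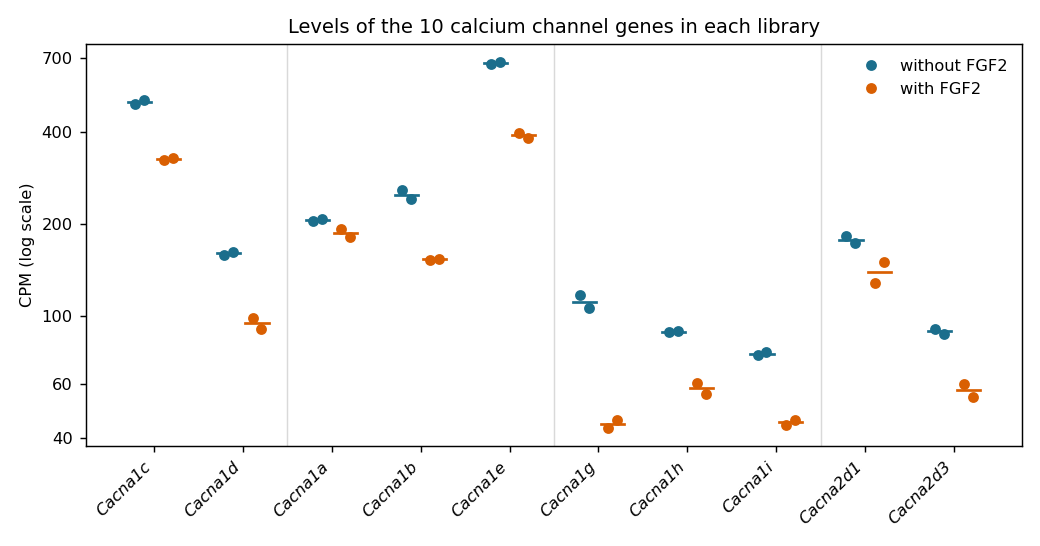
Level of each calcium channel gene in each library, in CPM on a log axis, with points for the 2 libraries of a group and bars for their mean. All FGF2 points lie below the points without FGF2 of the same gene; the gap is narrow for Cacna1a (182 to 193 against 205 to 208 CPM) and wide for Cacna1g (43.1 to 45.9 against 106 to 117 CPM).

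The L-type channel genes fell by similar amounts. Cacna1c, which encodes the main L-type pore of brain and heart, lies at chr6:118587240-119196418 (minus strand, mm10). It had 324 and 328 CPM in replicates 1 and 2 with FGF2, and 493 and 507 CPM without FGF2. The gap between the groups was far wider than the spread within each. In edgeR the log2 fold change was -0.62 ± 0.040 (SE, adjusted p = 6.8e-53), so that the level with FGF2 was 65.2% of that without. Cacna1d, an L-type pore that opens at lower voltage than that of Cacna1c, lies at chr14:30039939-30491455 (minus strand) and had 98.5 and 91.1 CPM with FGF2 against 159 and 162 CPM without. In edgeR the log2 fold change was -0.76 ± 0.060 (SE, adjusted p = 1.9e-34), or 59.1% of the level without FGF2. Of the exonic bases of Cacna1d 4.67% overlap Chdh on the opposite strand, which had only 37 to 56 counts in a library.

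The genes of Cav2 channels, which trigger transmitter release at nerve terminals, fell unequally. Cacna1e, the R-type pore, lies at chr1:154390731-154884501 (minus strand) and was the most counted of the 10 genes, with 3601 to 7321 counts per library. It had 397 and 384 CPM with FGF2 and 666 and 676 CPM without. Its level with FGF2 was 58.2% of that without, with a log2 fold change of -0.78 ± 0.038 (SE, edgeR adjusted p = 1.6e-93). Cacna1b, the N-type pore, lies at chr2:24603887-24763152 (minus strand) and had 153 and 154 CPM with FGF2 against 258 and 242 CPM without. In edgeR the log2 fold change was -0.70 ± 0.050 (SE, adjusted p = 1.6e-43), close to that of Cacna1e. Cacna1a, the P/Q-type pore that carries much of the release at mature central synapses, lies at chr8:84388440-84640246 (plus strand). It had 193 and 182 CPM with FGF2 and 205 and 208 CPM without, so that the gap between the groups was about as wide as that between the FGF2 libraries. The level with FGF2 was 90.7% of that without, with a log2 fold change of -0.14 ± 0.050 (SE, edgeR adjusted p = 0.013).

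The call for Cacna1a did not hold under every processing. The adjusted p was 0.13 with DESeq2 (log2 fold change -0.14) and 0.71 with GC and length offsets (-0.026), and it was 0.17 without FGF2 replicate 2 (-0.10), 0.072 without no FGF2 replicate 1 (-0.16) and 0.13 without no FGF2 replicate 2 (-0.14).

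The T-type genes included the largest fall of the 10. Cacna1g, a T-type pore strongly linked to thalamocortical burst firing, lies at chr11:94408391-94474198 (minus strand) and had 43.1 and 45.9 CPM with FGF2 against 117 and 106 CPM without. Its level with FGF2 was 39.9% of that without, with a log2 fold change of -1.33 ± 0.077 (SE, edgeR adjusted p = 1.2e-64). The fall remained between 1.21 and 1.40 on the log2 scale under every alternative. Cacna1h, a T-type pore also found in peripheral sensory neurons, lies at chr17:25374285-25433783 (minus strand) and had 60.4 and 55.7 CPM with FGF2 and 88.7 and 89.1 CPM without. It fell by 0.62 on the log2 scale (SE 0.076, edgeR adjusted p = 1.0e-14), and by 0.47 with GC content and exonic length offsets. Cacna1i, the T-type pore with the slowest kinetics, lies at chr15:80287238-80398279 (plus strand) and had 44.2 and 45.8 CPM with FGF2 and 74.5 and 76.2 CPM without. It fell by 0.74 on the log2 scale (SE 0.083, edgeR adjusted p = 8.3e-18). With FGF2 the libraries of Cacna1g and Cacna1i thus held about the same counts (391 to 451 and 401 to 450 per library), whereas without FGF2 Cacna1g was ahead (1148 to 1232 against 783 to 825 counts).

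The alpha2delta genes fell as well. These subunits bind gabapentin in the case of Cacna2d1, and are also linked to synapse formation. Cacna2d1 lies at chr5:15934691-16374511 (plus strand) and had 128 and 151 CPM with FGF2 and 182 and 173 CPM without. The FGF2 libraries differed from each other more than those without, although both lay below the libraries without FGF2. In edgeR the log2 fold change was -0.35 ± 0.054 (SE, adjusted p = 1.6e-09), and it was -0.24 without FGF2 replicate 1 and -0.47 without FGF2 replicate 2. Cacna2d3, whose gene spans 817 kb at chr14:28904943-29721864 (minus strand), had 59.95 and 54.5 CPM with FGF2 and 91.0 and 87.7 CPM without. It fell by 0.64 on the log2 scale (SE 0.076, edgeR adjusted p = 5.9e-16).

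**Figure D2:**
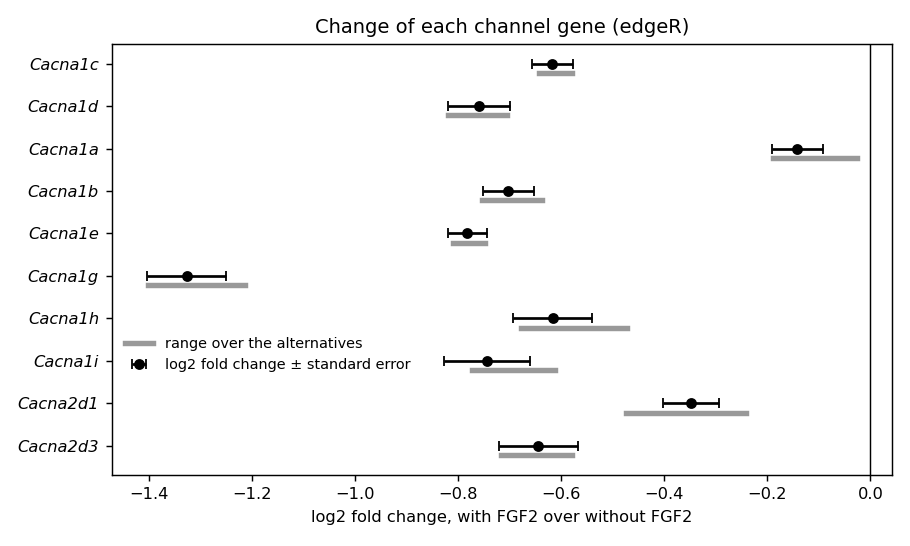
Log2 fold change (with FGF2 over without FGF2) of each gene from edgeR, with its standard error as black bars and its range over the alternatives, each library left out included, as grey bars. Cacna1a (-0.14) and Cacna2d1 (-0.35) lie nearest 0 and Cacna1g (-1.33) lies farthest; no grey bar crosses 0.

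The members share long genes. Their spans ran from 59.5 kb (Cacna1h) to 817 kb (Cacna2d3), against a median of 19.5 kb over all tested genes. The length offsets among the alternatives used exonic length, not this span. The GC content of the longest transcript was 58.1% to 59.95% for Cacna1a, Cacna1g, Cacna1h and Cacna1i and 40.7% to 52.9% for the other six, with a median of 48.8% over all tested genes. The GC-rich group held both the smallest and the largest fall. With the GC and length offsets its log2 fold changes were -0.026 (Cacna1a), -1.21 (Cacna1g), -0.47 (Cacna1h) and -0.61 (Cacna1i), each a smaller fall than without offsets. Of the other six only Cacna2d1 fell more with offsets (-0.42 against -0.35). The part of GC content in the falls was not tested.

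Levels between genes were compared per kilobase of exonic sequence. Without FGF2 the order of CPM per exonic kb was Cacna1e (26.6 ± 0.293, SD, n = 2), Cacna1b (25.1 ± 1.18), Cacna1c (23.6 ± 0.469), Cacna1a (18.1 ± 0.180), Cacna1d (12.7 ± 0.172), Cacna1g (11.01 ± 0.783), Cacna1h (9.11 ± 0.031) and Cacna1i (7.64 ± 0.120) among the pore genes. No neighbours in this order overlapped between libraries. With FGF2 Cacna1a came first (16.4 ± 0.692, SD, n = 2), followed by Cacna1e (15.5 ± 0.368), Cacna1b (15.4 ± 0.106) and Cacna1c (15.4 ± 0.143), and the libraries of Cacna1e, Cacna1b and Cacna1c overlapped. Cacna1d (7.51 ± 0.416) and Cacna1h (5.95 ± 0.339) came next, and the libraries of Cacna1i (4.56 ± 0.112) and Cacna1g (4.39 ± 0.193) overlapped at the low end. With the length of the longest transcript in place of all exonic bases Cacna1e led in both groups (26.2 with FGF2 and 45.0 without, CPM per kb of transcript), so the order depends on the length used. The alpha2delta genes had 11.2 ± 1.29 (Cacna2d1) and 6.56 ± 0.442 (Cacna2d3) CPM per exonic kb with FGF2, and 14.3 ± 0.544 and 10.2 ± 0.263 without (SD, n = 2).

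Summed over the 8 pore genes, the level per exonic kb was 86.0 and 84.2 with FGF2 and 134 and 133 without, or 63.6% of the level without FGF2. The make-up of this sum differed between the groups, with more Cav2 and less T-type with FGF2, mainly through Cacna1a and Cacna1g. Cav2 genes held 55.8% and 55.4% of the sum with FGF2 and 52.3% and 52.0% without, a difference of 3.44 percentage points. Cav3 genes held 17.3% and 17.7% with FGF2 and 21.0% and 20.5% without, a difference of -3.24 points. The share of Cav1 genes was 26.9% and 27.0% with FGF2 and 26.7% and 27.6% without, and the groups overlapped. For the Cav2 and Cav3 shares the exact permutation test (two-sided) gave p = 0.333, the smallest that 2 libraries against 2 allow, and for Cav1 it gave p = 1. With raw counts, not scaled by length, the differences were 1.63 points for Cav2 and -2.02 points for Cav3, and that for Cav1 changed sign (0.39 points). Cacna1a and Cacna1g differed most within these classes. Among the Cav2 genes only Cacna1a had a larger share with FGF2 (5.76 points), against -0.62 points for Cacna1b and -1.69 points for Cacna1e. Among the Cav3 genes the difference was -3.07 points for Cacna1g, 0.18 points for Cacna1h and -0.35 points for Cacna1i. The share of Cacna1a was 19.6% and 18.9% with FGF2 and 13.4% and 13.7% without, and that of Cacna1g was 4.94% and 5.37% with FGF2 and 8.61% and 7.84% without.

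**Figure D3:**
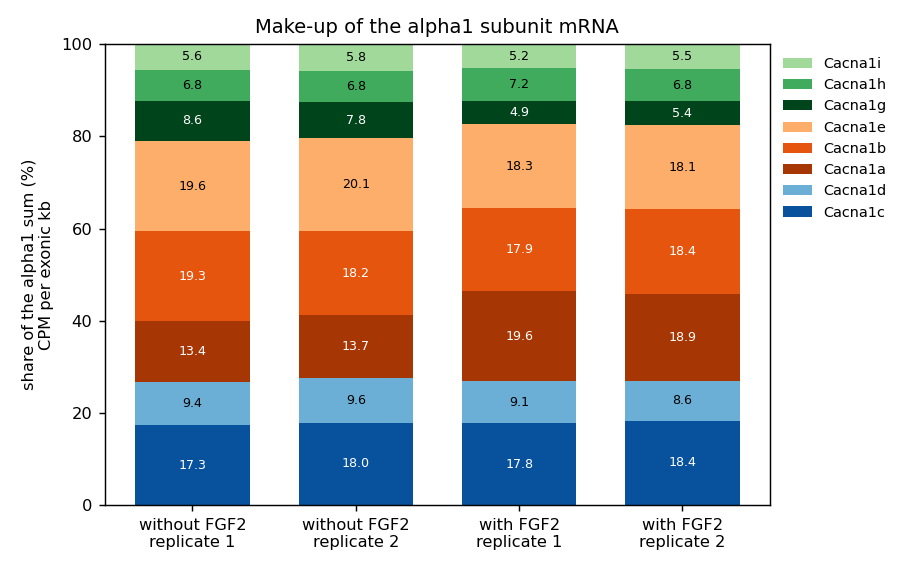
Share of each of the 8 pore genes in their summed level (CPM per exonic kb, %), 1 bar per library, blue for Cav1, orange for Cav2 and green for Cav3 genes. The Cacna1a band is wider with FGF2 (18.9% to 19.6% against 13.4% to 13.7%) and the Cacna1g band is narrower (4.94% to 5.37% against 7.84% to 8.61%).

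Ratios of the same levels within a library describe this shift in make-up by pairs of genes. Like the shares they need no scaling between libraries, and they restate the shares rather than add separate support. Cacna1a stood at 1.10 and 1.03 times Cacna1b per exonic kb with FGF2, and at 0.692 and 0.750 times without. Cacna1h stood at 1.46 and 1.26 times Cacna1g with FGF2, and at 0.785 and 0.873 times without. The L-type pair moved less, with Cacna1c at 1.96 and 2.15 times Cacna1d with FGF2 and at 1.85 and 1.87 times without. In each of these 3 pairs the groups did not overlap, and the exact permutation test (two-sided) gave its smallest possible p of 0.333.

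As pan-neuronal markers were also lower with FGF2, each channel gene was set beside them in the same library. The mean log2 CPM of the 12 markers was lower with FGF2 by 0.44 on the log2 scale, from 7.65 and 7.60 without FGF2 to 7.20 and 7.18 with FGF2. Relative to this mean, 8 of the 10 members still lay lower in both FGF2 libraries than in both others, as did 7.96% of all tested genes, while 72.2% lay higher in both. The difference was -0.89 for Cacna1g (exact permutation test, two-sided, its floor of p = 0.333, as for each member without overlap), and between -0.34 and -0.18 for Cacna1e, Cacna1d, Cacna1i, Cacna1b, Cacna2d3, Cacna1c and Cacna1h. Cacna1a went the other way, with 0.40 and 0.33 above the marker mean with FGF2 and 0.029 and 0.099 above it without. For Cacna2d1 the groups overlapped (-0.19 and 0.058 with FGF2, -0.14 and -0.17 without). The markers themselves ranged from -1.10 to 0.38 in log2 fold change, so their mean is only a rough base.

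**Figure D4:**
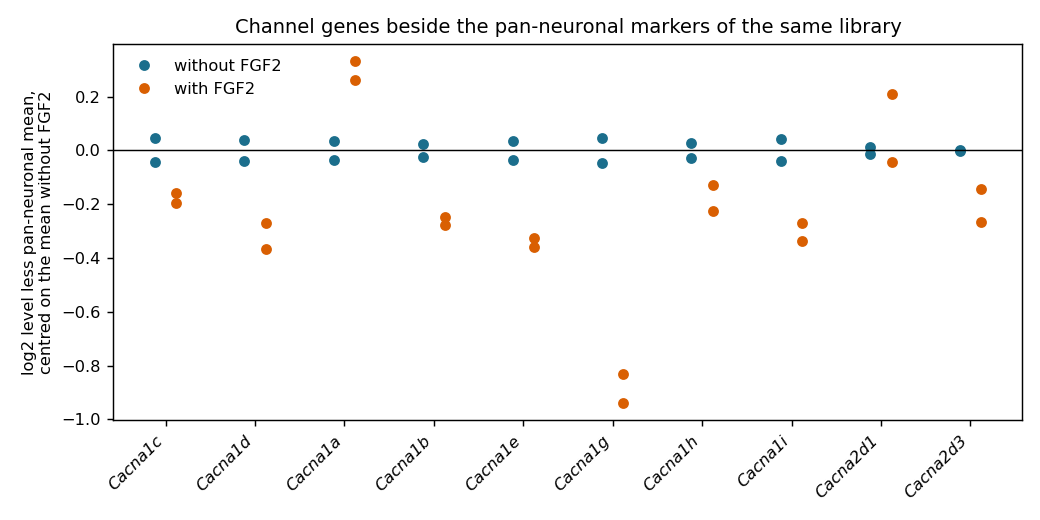
Log2 level of each gene less the mean log2 level of the 12 pan-neuronal markers in the same library, centred on the mean without FGF2, with 1 point per library. Cacna1g lies farthest below 0 with FGF2 (difference -0.89), Cacna1a lies above 0 (0.30) and the points of Cacna2d1 overlap.

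Further genes named as alpha1, alpha2delta, beta or gamma subunits were also mostly lower. Of 16 such genes, 13 were tested, 8 were lower and none was higher with FGF2, and the median log2 fold change was -0.36. Over all tested genes 19.9% were lower and 20.7% higher. Of the 8 lower genes 4 were gamma genes, most of which serve AMPA receptors, as given below. Of the remaining pore genes, Cacna1f of the retina was at 0 in every library and Cacna1s of skeletal muscle had 3 to 7 counts. A count of 0 allows up to 3 counts, or 0.277 to 0.331 CPM, from counting error alone. Among the alpha2delta genes Cacna2d2 had 20.2 and 16.7 CPM with FGF2 and 40.4 and 38.9 CPM without, and fell by 1.11 on the log2 scale (SE 0.12, edgeR adjusted p = 1.4e-19). Cacna2d4 had 5 to 13 counts per library and did not pass the threshold (log2 fold change -0.19, adjusted p = 0.84 from edgeR).

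Beta subunits bind alpha1 inside the cell and carry it to the membrane. Of the 4 beta genes 3 fell, by 0.53 for Cacnb3, 0.36 for Cacnb1 and 0.30 for Cacnb4 on the log2 scale (adjusted p = 1.0e-12, 1.8e-05 and 4.0e-04 from edgeR). The call of Cacnb4 was lost without no FGF2 replicate 1 (log2 fold change -0.20, adjusted p = 0.12). Cacnb2 had a log2 fold change of -0.20 (adjusted p = 0.16 from edgeR), which was -0.32 with GC content and exonic length offsets (adjusted p = 0.012). The beta genes together had 41.8 and 40.01 CPM per exonic kb with FGF2 and 54.8 and 54.6 without, or 74.9%. The pore sum was 2.06 and 2.105 times the beta sum with FGF2 and 2.45 and 2.45 times without, and the groups did not overlap (p = 0.333 in the exact permutation test, again its floor).

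Most gamma genes encode TARPs, which traffic AMPA receptors rather than calcium channels. Of 7 tested gamma genes 4 fell. The falls were 0.84 for Cacng8, 0.70 for Cacng2, 0.62 for Cacng3 and 0.57 for Cacng4 on the log2 scale, and each adjusted p from edgeR was 1.5e-05 or lower. Cacng6 had 6 to 11 counts per library (log2 fold change 0.0088, adjusted p = 0.99 from edgeR), and the sign of this value changed with the scaling. Cacng7 was well counted, at 131 and 127 CPM with FGF2 and 122 and 119 CPM without. It did not pass (log2 fold change 0.095, adjusted p = 0.21 from edgeR), nor did Cacng5 (-0.20, adjusted p = 0.19 from edgeR).

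Regulators that bind the channels were split. The RGK GTPases, which inhibit high-voltage calcium channels, included 2 genes that rose among 3 tested, where 20.7% of all tested genes were higher. Gem had 44.9 and 47.2 CPM with FGF2 and 16.8 and 16.3 CPM without, with a log2 fold change of 1.47 ± 0.12 (SE, edgeR adjusted p = 5.0e-35). Rrad had 27 and 53 counts with FGF2 and 1 and 4 counts without, with a log2 fold change of 4.10 ± 0.57 (SE, edgeR adjusted p = 1.0e-11), which was 3.46 without no FGF2 replicate 1 and 5.28 without no FGF2 replicate 2. Rem2, an RGK gene of neurons, had 21 and 33 counts with FGF2 and 47 and 50 counts without, and its log2 fold change of -0.67 did not pass (adjusted p = 0.080 from edgeR), but it did without FGF2 replicate 2 (-0.97, adjusted p = 0.047). Rem1 had at most 4 counts in a library and was not tested.

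Calmodulin is the calcium sensor that inactivates the channels. Its genes Calm2 and Calm3 fell by 0.29 and 0.29 on the log2 scale (edgeR adjusted p = 2.6e-12 and 3.1e-16). Of the other regulators in this list, Cabp1, a neuronal calcium-binding protein, fell by 0.76 (adjusted p = 5.7e-06 from edgeR), and Stac2, a channel adaptor with 28 to 85 counts per library, fell by 1.01 (adjusted p = 7.1e-04 from edgeR). The call of Stac2 was lost with DESeq2 (adjusted p = 0.067) and without no FGF2 replicate 2 (-0.85, adjusted p = 0.060). Stac3 did not pass (log2 fold change 0.064, adjusted p = 0.87 from edgeR).

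Active zone proteins tether Cav2 channels to the release sites. Of 5 genes 4 fell, where 19.9% of all tested genes were lower. Rimbp2 was at -0.75, Erc2 at -0.40, Rims1 at -0.40 and Rims2 at -0.35 in log2 fold change, and each adjusted p from edgeR was 1.8e-06 or lower. Erc1, which is not particular to neurons, had a log2 fold change of -0.080 (adjusted p = 0.14 from edgeR) and passed with upper quartile scaling (-0.11, adjusted p = 0.046).

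**Figure D5:**
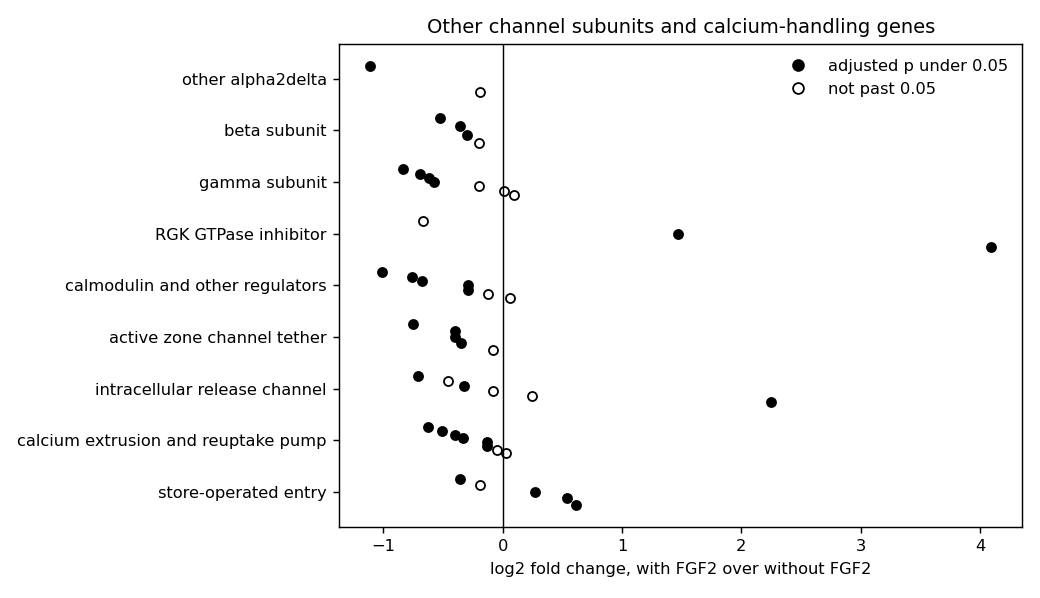
Log2 fold change (with FGF2 over without FGF2) of the tested genes among the other channel subunits and calcium-handling genes, 1 row per list and 1 point per gene, filled where the adjusted p (edgeR) was below 0.05. Most filled points lie left of 0, and Itpr2 (2.25), Gem (1.47) and Rrad (4.10) lie farthest to the right.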

How the data were processed

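Gene counts of 4 libraries of P0 mouse PFC cultures were analysed, 2 with and 2 without FGF2, grouped by sample title. The authors mapped clean reads to mm10 with HISAT2 2.1.0 (versions from the submitters' processing notes), filtered alignments by mapping quality with Samtools, counted reads per gene with HTSeq 0.11.2, and deposited raw counts without normalization. The annotation release and strand setting are not given in the sources used here. Counts above 0 were found for 4 of 692 genes that lie at least 98% within another gene of their own strand, and for 161 of 494 within one of the opposite strand, so reads were assigned by strand.

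Identifiers were matched to GENCODE M21 (55240 of 55421), which gave names, mm10 coordinates and lengths. The 5 tallies that name no gene were left out. Reads in no feature made up 43.2% to 45.9% and ambiguous reads 1.47% to 1.76%. The test was edgeR 4.0.16 (R 4.3.3), quasi-likelihood with TMM, its expression filter, robust estimation and Benjamini-Hochberg adjustment over 17144 genes. Standard errors were the absolute log2 fold change over the square root of F. Levels relative to markers used a prior count of 1. Replicates differed by more than sampling noise (chi-square per degree of freedom 2.28 with FGF2, 1.76 without). Alternatives used limma 3.58.1 (voom), DESeq2 1.42.0, other scalings and filters, a block and each library left out. Offsets for GC content and exonic length (lowess, span 0.3) were a further alternative. The fits were also run on simulated counts with known changed genes, drawn with the spread estimated from these libraries. That run cannot show how the fits perform on variation between cultures or animals. Named genes were every member, every called gene of the calcium lists and the least changed tested gene of each list. Genes too low to test, and Cacng5 and Cacng7, were named after their values were seen. Members and lists were chosen with earlier results of these data known, and no list was tested as a set. The values of 1 gene of these lists are not reported here.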

Additional observations from a re-analysis of the deposited data

How the results depend on the processing

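Of the 10 channel genes, 9 kept their direction and their side of the threshold of 0.05 under each alternative, and Cacna1a lost its call as given above. Of 41 other calcium genes followed, 29 did so. The number of tested genes past the threshold was 4007 with DESeq2 in place of 6949, between 5213 and 6199 with a library left out, and 5427 at a threshold of 0.01, where 9 members passed. The cause of the lower DESeq2 count was not tested. Of the other calcium genes 47 were tested, 26 were lower and 6 higher, and 3 were higher with DESeq2. Over all tested genes 19.9% were lower and 20.7% higher in edgeR. These counts of the other calcium genes were not planned in advance. Libraries with the same replicate number did not deviate together (correlation 0.0055 across 10858 genes averaging 100 counts or more). This cannot show whether they share an animal or a preparation, which the labels do not give. With the replicate block 6814 genes and 10 members were called, and with GC content and exonic length offsets as well 6815 genes and 9 members.

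The difference in the Cav1 share turned from -0.21 to 0.39 points with raw counts, and lay between -0.65 and 0.23 with a library left out. The Cav2 share difference was 1.63 with raw counts and 3.23 to 3.66 with a library left out. That of Cav3 was -2.90 with transcript length, -2.02 with raw counts and -3.49 to -2.98 with a library left out. Raw counts leave out the length scaling by construction. Sign changes occurred in uncalled genes. Cacng6 was at -0.017 with upper quartile scaling, -0.0084 with total count scaling, -0.0040 with DESeq2 and -0.0041 with limma-voom. Slc8a1 was at -0.0016 with upper quartile scaling and -0.064 and -0.063 with offsets, without and with the block. With a library left out, Cacna2d4 ranged from -1.01 to 0.35, Cacng6 from -0.43 to 0.32 and Stac3 from -0.092 to 0.19. Depth limits genes with few counts, such as Cacna1s, Cacng1 and Rem1, which were not tested.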

Other observations

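Among genes of other calcium routes, 2 of 6 release channel genes of the endoplasmic reticulum were lower with FGF2 and 1 was higher, where 19.9% of all tested genes were lower and 20.7% higher. The largest rise among these routes was in Itpr2, an inositol trisphosphate receptor that is the main type of astrocytes. Itpr2 had 291 and 283 CPM with FGF2 and 60.2 and 60.3 CPM without, a log2 fold change of 2.25 (standard error 0.057), and both libraries with FGF2 were above both others. Ryr2 and Ryr3, ryanodine receptors of neurons and muscle, fell by 0.33 and 0.71 on the log2 scale (adjusted p = 7.7e-10 and 1.6e-17 from edgeR). Itpr1, the receptor type of neurons, had 119 and 122 CPM with FGF2 and 123 and 130 CPM without (log2 fold change -0.078, adjusted p = 0.32 from edgeR). As given above, 8 of 9 astrocyte markers were higher with FGF2, and their part in the rise of Itpr2 was not tested.

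Of 9 pump and exchanger genes, which carry calcium out of the cytosol, 8 were tested, 6 were lower and none was higher. For this list and the next, the shares over all tested genes were 19.9% lower and 20.7% higher. The plasma membrane pump genes Atp2b3, Atp2b2, Atp2b1 and Atp2b4 fell by 0.63, 0.40, 0.33 and 0.13 on the log2 scale, the exchanger gene Slc8a3 fell by 0.51 and the reticulum pump gene Atp2a2 fell by 0.13. Slc8a1 had 295 and 303 CPM with FGF2 and 292 and 296 CPM without (log2 fold change 0.024, adjusted p = 0.70 from edgeR). Of 5 genes of store-operated entry, through which emptied stores are refilled, Stim1 fell by 0.36 (adjusted p = 3.3e-05 from edgeR), whereas Orai3, Orai1 and Stim2 rose by 0.62, 0.54 and 0.27 (adjusted p = 3.1e-04, 0.023 and 0.0037 from edgeR). The calls of these 3 genes were lost with DESeq2 (adjusted p = 0.053, 0.24 and 0.11). They were also lost without no FGF2 replicate 2 (adjusted p = 0.063, 0.13 and 0.095), and for Orai1 without FGF2 replicate 2 (0.17) and no FGF2 replicate 1 (0.097) and for Stim2 without FGF2 replicate 2 (0.13). Orai2 had a log2 fold change of -0.19 (adjusted p = 0.14 from edgeR).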
